A study of Mus musculus with 5 samples.

Results

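Orphan and adhesion G protein-coupled receptors were examined in RNA-seq counts of sorted mouse microglia, the resident macrophages of the brain. The genes were taken by name: every protein-coding gene of the count table whose symbol starts with Gpr and a digit or with Adgr, with Gpr34 left out. The rule found 99 genes, 72 Gpr and 27 Adgr, among the 21474 protein-coding genes and 41388 genes of the table. The rule itself uses no measured value, but the family was chosen with earlier results of these data known. A symbol of this form does not mean that a protein is a receptor or still an orphan: several Gpr genes have since been given ligands, and some encode membrane proteins of other kinds.

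Microglia came from C57Bl/6 mice aged 4 weeks that had received 2 mg tamoxifen on postnatal days 14 and 16. The control group, with 2 libraries, is labelled partially deficient and has the genotype eYFP-A20fl/wt Cx3cr1-CreERT2/+, so these cells too carried a floxed A20 allele, the eYFP reporter and the inducible Cre (in the Cx3cr1 locus), and had also been given tamoxifen. The A20 deletion group, with 3 libraries, is labelled fully deficient, with the genotype given as eYFP-A20Dmg. A20, the product of Tnfaip3, edits ubiquitin chains and dampens NF-kB signalling, and the comparison asks what its loss changes in microglia. A wild-type group without Cre was not analysed here, and Cx3cr1 drives the Cre in other macrophages as well as in microglia. Whether each library is a separate animal is not stated in the labels, and p-values therefore reflect only how far these samples vary, which may be technical.

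G protein-coupled receptors cross the membrane with a bundle of helices and pass a signal from an outside ligand to heterotrimeric G proteins, which act on adenylyl cyclases, phospholipase C and ion channels. Adhesion receptors carry a long extracellular part that binds other cells or matrix and is cut close to the membrane, which exposes a tethered agonist. In microglia, adhesion receptors such as ADGRE1 (the F4/80 antigen) and ADGRG1 (GPR56) serve as markers, and several ligand-binding members report acidity, lipids and metabolites from the tissue around the cell.

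Library totals were 13946211 and 15275199 counts for the controls, and 11902432, 12883827 and 9726334 after deletion, so that 3 counts were worth between 0.192 and 0.306 CPM. CPM stands for the count scaled to a common library total, here after TMM scaling (trimmed mean of M values). Tnfaip3 was at 454 and 94.8 CPM in control replicates 1 and 2 and at 295, 277 and 348 CPM in A20 deletion replicates 1 to 3, so the control values lie on both sides of the others. These are counts over the whole gene and do not show whether the floxed part is present, so they do not check the labels. All 10 microglial marker genes were measured, with a summed level of 59720 and 64120 CPM in the controls and 43700 to 48830 CPM after deletion. The libraries differed in structure as well as in group. The mitochondrial share of counts was 1.19% and 0.852% in the controls, 0.848% for A20 deletion replicate 1, and higher for replicate 2 (4.63%) and replicate 3 (3.56%). Of the counts of tested genes, those with exons longer than the median took 48.0% and 46.8% in the controls, and 44.9%, 37.8% and 38.5% in A20 deletion replicates 1, 2 and 3. Control replicate 1 and A20 deletion replicate 1 held 780 and 616 counts of Xist and at most 1 count of the Y-linked genes Ddx3y, Eif2s3y, Kdm5d and Uty, whereas in the 3 remaining libraries Xist was at 0 and the Y-linked genes at 1230 to 2155 counts.

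Of the 99 receptor genes, 75 had at least 1 count in some library (54 of 72 Gpr genes and 21 of 27 Adgr genes), and 24 had 0 counts in all 5. Single libraries held counts of 43 and 60 receptor genes in the controls and of 56, 63 and 53 after deletion. By mean level, 8 genes reached 100 CPM, 12 lay between 10 and 100 CPM, 13 between 1 and 10 CPM and 42 below 1 CPM. The filter on low counts passed 36 genes (23 Gpr and 13 Adgr). It needs a minimum count in only as many libraries as the smaller group holds, so a gene high in 1 group alone can pass. The other 39 detected genes had 1 to 43 counts over the 5 libraries together and were not tested.

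A few receptors carried most of the signal. The 99 genes summed to 5036 and 5551 CPM in the controls and to 4575, 4346 and 4239 CPM after deletion, which is 5293 ± 364 (SD, n = 2) against 4386 ± 172 (SD, n = 3). Adgrg1 and Adgre1 together made up 56.3% to 60.1% of this sum in each library. Levels of different genes are compared only per length, as CPM per kilobase of exon over the 5 libraries. On that scale, and pooled over both groups, Adgre1 (325 ± 49.4, SD, n = 5), Adgrg1 (316 ± 47.7) and Gpr84 (264 ± 76.5) came first, with overlapping spreads. Gpr183 followed at 83.5 ± 24.6, below all of these. Gpr155 (42.1 ± 18.1), Gpr165 (33.6 ± 34.8) and Gpr108 (31.8 ± 5.19) were next, with overlapping pooled spreads, which include any difference between the groups. Gpr146 (16.5 ± 3.54), Gpr180 (15.33 ± 1.58) and Gpr160 (13.7 ± 4.92) closed the first 10, again with overlapping pooled spreads. The order was not the same in both groups. In the controls Adgrg1 (367 ± 20.9 CPM per kilobase, SD, n = 2) and Adgre1 (344 ± 58.0) stood above Gpr84 (183 ± 6.32), while after deletion Gpr84 (317 ± 30.4, SD, n = 3) and Adgre1 (313 ± 51.3) were within each other's spread and Adgrg1 was at 282 ± 9.18. Gpr165 was at 71.6 ± 0.939 in the controls, rank 5, and at 8.24 ± 3.53 after deletion, rank 16. Gpr155 was at 61.2 ± 2.58 in the controls and 29.4 ± 6.53 after deletion, and Gpr108 at 27.5 ± 1.04 and 34.7 ± 4.73. In the controls Gpr165, Gpr155 and Gpr108 were thus apart, and after deletion Gpr165 was below both Gpr155 and Gpr108.

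**Figure D1:**
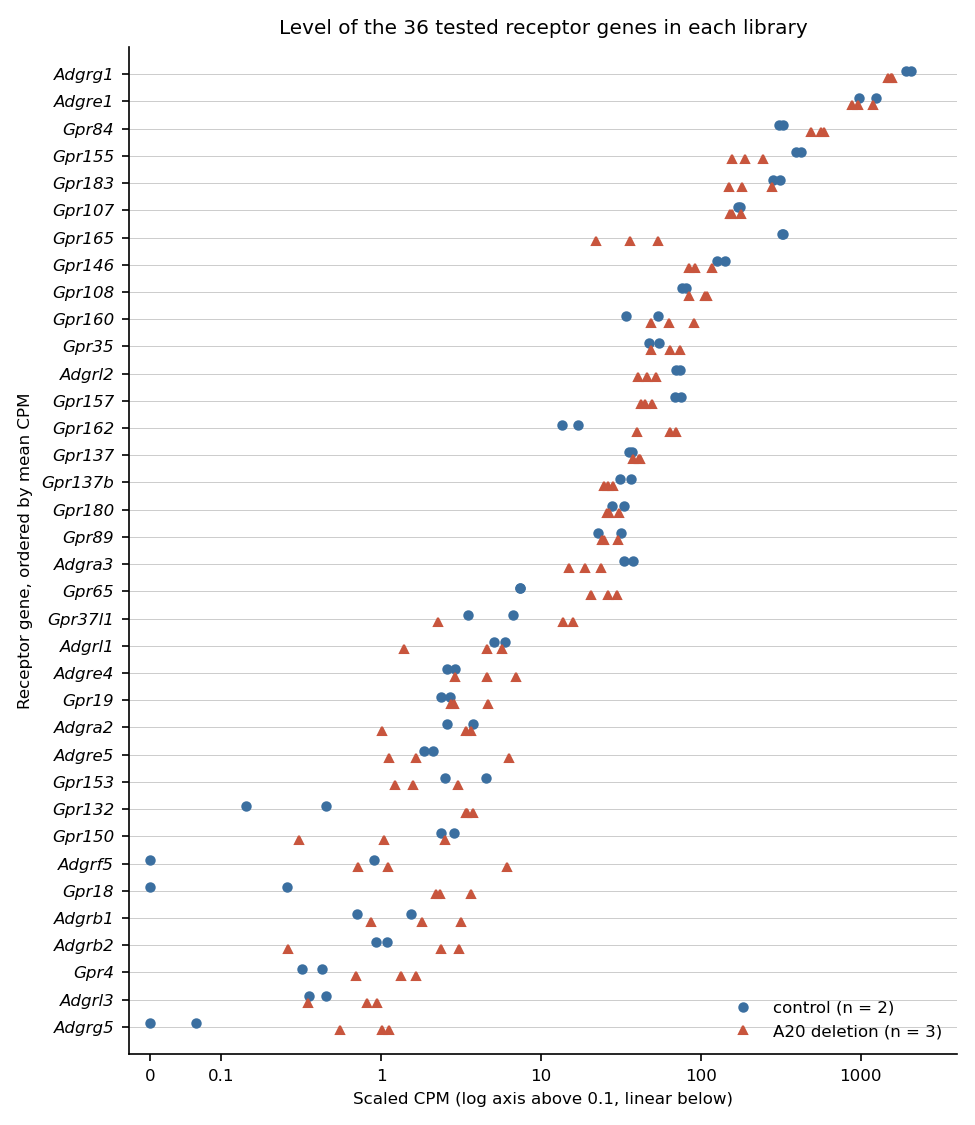
Scaled CPM of the 36 tested receptor genes in each library (x axis, log above 0.1 and linear below), genes ordered by mean CPM on the y axis; circles are the 2 control libraries and triangles the 3 A20 deletion libraries. Adgrg1 and Adgre1 stand at the top, Gpr165 has all triangles far left of its circles, and Gpr132, Gpr18 and Adgrg5 have all triangles far right of theirs.

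Between the groups, 3 receptor genes rose in the A20 deletion libraries (Gpr65, Gpr162 and Gpr132) and 1 fell (Gpr165), out of 36 tested, at an adjusted p under 0.05 by edgeR's quasi-likelihood test with adjustment over all genes. The 4 calls are 11.1% of the tested receptor genes. Over all 12240 tested genes, 317 or 2.59% were called in either direction, 2.08% higher and 0.507% lower. The groups did not overlap for 19 of 36 receptor genes (52.8%), beside 40.2% of all genes, and 13 of 36 had an unadjusted p under 0.05, beside 21.0% of all genes. Of the 36, 19 had a log2 fold change above 0 and 17 below it, with a median of 0.21, beside 0.05 over all tested genes. These shares and this median include genes of few counts that the filter kept through the deletion group: Gpr132, Gpr18, Gpr4 and Adgrg5 among them. For such genes the filter itself favours a higher level after deletion, and the groups did not overlap for any of those named. With a stricter filter 5 of 22 receptor genes were called, beside 3.79% of all genes. The median was -0.09 over these 22 genes, -0.02 without A20 deletion replicate 1 and -0.04 without replicates 2 and 3. All 4 called genes are Gpr genes, and 0 of 13 Adgr genes were called. RNA from sorted cells in bulk cannot tell fewer cells of a type from less RNA per cell.

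**Figure D2:**
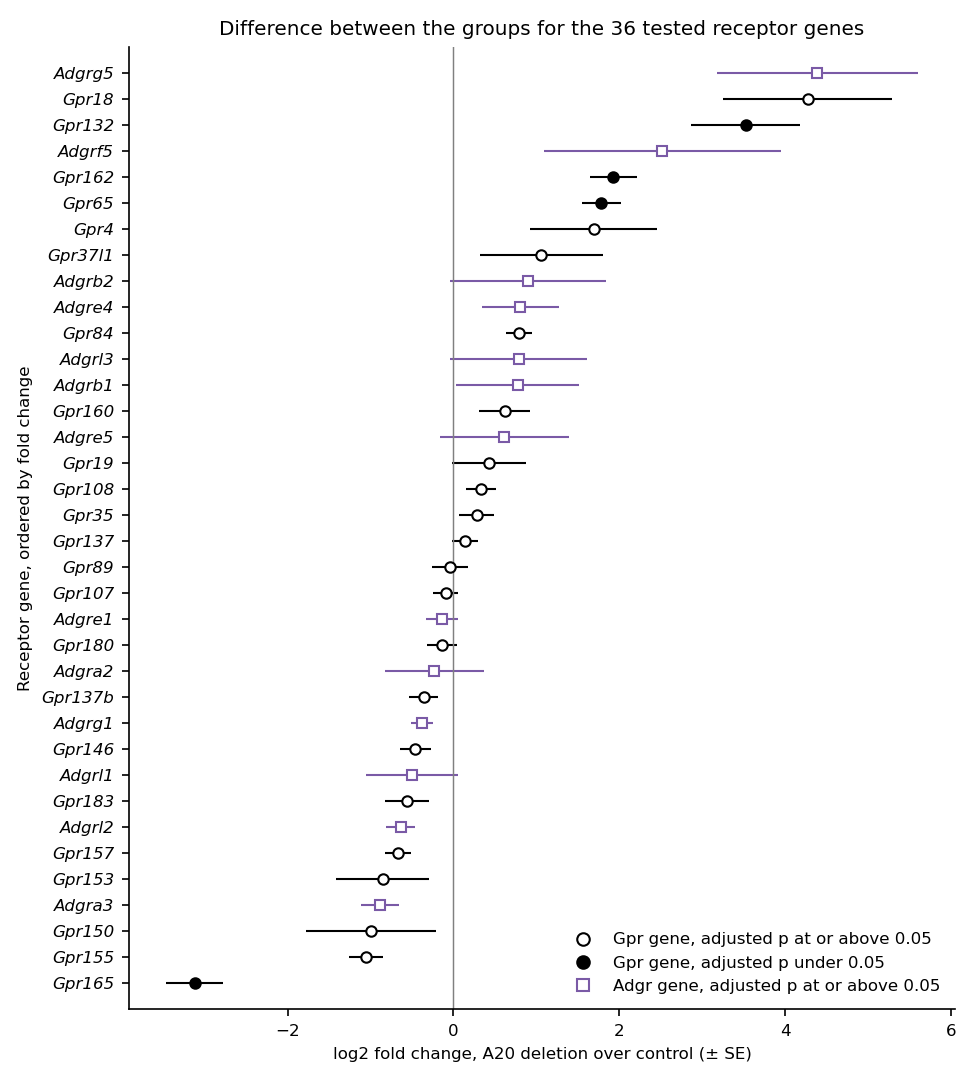
Log2 fold change of A20 deletion over control with its standard error (x axis) for the 36 tested receptor genes, ordered on the y axis; filled circles have an adjusted p under 0.05, circles are Gpr genes and squares Adgr genes. Gpr165 stands alone at the low end, while the high end holds genes of few counts with wide errors beside Gpr132, Gpr162 and Gpr65.

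Gpr165, an orphan receptor (ENSMUSG00000031210, GRCm38 chromosome X, 96713441 to 96719388, plus strand), had the greatest fall among the tested receptor genes. Its level was 329 and 323 CPM in the controls and 54.1, 36.2 and 22.0 CPM in A20 deletion replicates 1, 2 and 3. Every deletion library was far below both controls, and the controls were nearly equal. The means were 326 ± 4.27 (SD, n = 2) and 37.4 ± 16.1 CPM (SD, n = 3), 8.68-fold lower, with a log2 fold change of -3.12 (SE 0.34, edgeR adjusted p = 0.00792). The gene lies on the X chromosome, and the libraries with and without Xist were compared apart: the log2 ratio was -2.60 between A20 deletion replicate 1 and control replicate 1, which hold Xist, and -3.47 between A20 deletion replicates 2 and 3 and control replicate 2. Both comparisons have a single control library and no test.

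Among the other orphans, Gpr162 rose (ENSMUSG00000038390, chromosome 6, 124858444 to 124863983, minus strand). It was at 17.0 and 13.5 CPM in controls against 64.0, 39.9 and 70.1 CPM after deletion, so the groups were well apart while the deletion libraries varied among themselves. On the log2 scale the difference was 1.93 (SE 0.29, 3.81-fold, edgeR adjusted p = 0.0220). Gpr157 did not pass the threshold, at 69.1 and 75.4 CPM against 49.4, 45.0 and 42.0 CPM (log2 fold change -0.67, SE 0.16, edgeR adjusted p = 0.0868). Gpr146, known from work on cholesterol in liver cells, had 126 and 142 CPM against 117, 91.4 and 84.3 CPM, with a log2 fold change of -0.46 and an edgeR adjusted p of 0.229. Both genes were below both controls in every deletion library. Gpr160 overlapped between the groups, with 33.9 and 53.8 CPM against 48.9, 90.0 and 62.9 CPM (log2 fold change 0.62, edgeR adjusted p = 0.298). Gpr153 overlapped too, at 4.55 and 2.50 CPM against 3.03, 1.57 and 1.222 CPM. The group of 25 other orphans had 17 detected and 7 tested genes. Of the 7, 1 rose and 1 fell, beside 2.08% and 0.507% of all genes. Controls and deletion libraries did not overlap for 4 of the 7, beside 40.2% of all genes. The summed level of the 25 was 582 and 613 CPM in the controls and 338, 308 and 283 CPM after deletion. The fall of Gpr165 in CPM is about as large as the difference of these sums.

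The proton-sensing receptors, which are activated when the fluid around a cell turns acid, include Gpr4, Gpr65 and Gpr132. Gpr65 and Gpr132 rose. Gpr132 and Gpr4 reached the filter through the deletion libraries, where they are higher, so their joint direction is no support for one of the group, and the stricter filter drops both. Gpr65, the receptor also called TDAG8 (ENSMUSG00000021886, chromosome 12, 98268635 to 98276644, plus strand), was at 7.40 and 7.38 CPM in controls against 29.8, 20.4 and 26.2 CPM after deletion. The controls were nearly equal, and the lowest deletion library was well above them. The means were 7.39 ± 0.0149 (SD, n = 2) and 25.5 ± 4.72 CPM (SD, n = 3), 3.44-fold higher, with a log2 fold change of 1.78 (SE 0.24, edgeR adjusted p = 0.0153). An antisense gene, Gm47566, overlaps 24.7% of its exon bases, and without a stated strand setting the reads of both cannot be told apart.

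Gpr132 (ENSMUSG00000021298, chromosome 12, 112850873 to 112868228, minus strand) is usually listed with the proton sensors and is also known for binding oxidized fatty acids. It was nearly absent from the controls, at 0.142 and 0.449 CPM, and stood at 3.38, 3.77 and 3.46 CPM after deletion, with 130 counts over all libraries. The deletion libraries were close to each other. On the log2 scale the difference was 3.52 (SE 0.65, 11.5-fold, edgeR adjusted p = 0.0441), close to the threshold. The controls held only 2 and 7 counts, and the log2 value was 2.91 without control replicate 1 and 4.49 without control replicate 2, so the size of the fold is not firm. Gpr4 had 0.427 and 0.321 CPM against 0.693, 1.65 and 1.32 CPM and was not called (log2 fold change 1.69, SE 0.76, edgeR adjusted p = 0.257). Gpr65 and Gpr132 both lie on chromosome 12.

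The upstream stretches of the called receptor genes with an entry are shown because their levels moved with the group. They come from RefSeq (GRCm38.p6), the longest exon-free part of the 250 bases before a transcript start, written 5′ to 3′ in lower case with capitals for a motif match. The stretch of Gpr132 lies before an inner start, within the gene. Entries were found for 72 of the 99 receptor genes and for 29 of the 36 tested.
Gpr165, chrX:96713218-96713440, plus strand: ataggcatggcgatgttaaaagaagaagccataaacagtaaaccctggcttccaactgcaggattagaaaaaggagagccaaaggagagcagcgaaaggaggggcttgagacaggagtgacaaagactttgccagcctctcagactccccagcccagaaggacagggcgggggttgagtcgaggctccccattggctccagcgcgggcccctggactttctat
Gpr65, chr12:98268385-98268634, plus strand: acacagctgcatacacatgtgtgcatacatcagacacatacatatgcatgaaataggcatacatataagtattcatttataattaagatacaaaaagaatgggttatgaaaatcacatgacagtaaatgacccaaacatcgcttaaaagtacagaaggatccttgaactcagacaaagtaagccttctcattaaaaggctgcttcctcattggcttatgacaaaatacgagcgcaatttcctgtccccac
Gpr132, chr12:112860953-112861166, minus strand: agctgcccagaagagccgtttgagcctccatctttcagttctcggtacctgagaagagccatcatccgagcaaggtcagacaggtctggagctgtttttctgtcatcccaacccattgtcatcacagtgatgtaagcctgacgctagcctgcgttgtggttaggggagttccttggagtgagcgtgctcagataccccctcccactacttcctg
Gpr18, chr14:121915889-121916138, minus strand: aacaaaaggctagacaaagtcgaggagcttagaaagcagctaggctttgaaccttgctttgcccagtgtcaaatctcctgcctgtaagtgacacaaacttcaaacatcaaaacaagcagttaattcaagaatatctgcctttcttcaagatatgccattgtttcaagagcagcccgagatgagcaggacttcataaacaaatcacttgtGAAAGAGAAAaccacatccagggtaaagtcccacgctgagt
Gpr18 was added after its values were seen, as its groups did not overlap and its window holds a match. The same holds for Gpr19 and Gpr137, whose stretches are not shown. The full windows of 250 bases were searched on both strands for 4 motifs. The kappaB letters GGGNNTTTCC, bound by NF-kB, were in 0 of 92 receptor gene windows and in 1.41% of the 32851 windows of all genes. The interferon response letters GAAANNGAAA were in 5 of 92 windows, of the tested genes in Gpr18 (capitals), Adgrl3 and Gpr19, and in 2.98% of all windows. The PU.1 letters GAGGAAGT were in 4 of 92 windows against 2.44% of all, and the cAMP response letters TGACGTCA in 1 of 92 against 1.55%. The stretches of Gpr165, Gpr65 and Gpr132 held none of these letters. A match is a description of the letters and not a binding site, and its absence from so short a window says nothing about the factor.

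**Figure D3:**
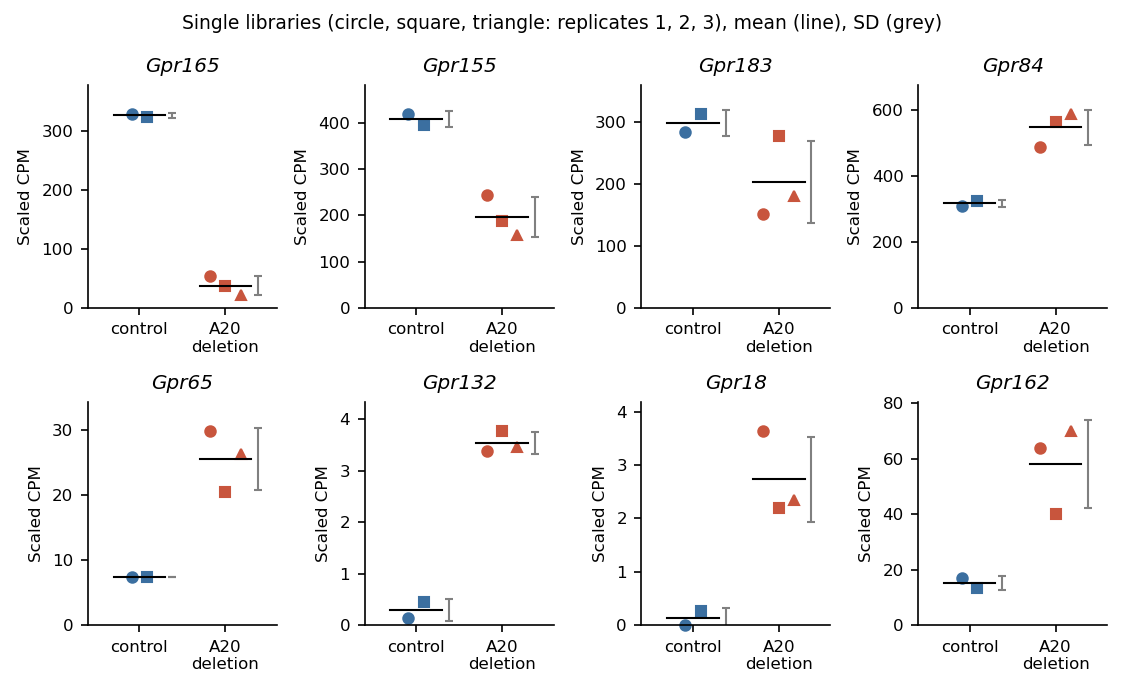
Scaled CPM (y axis) of 8 receptor genes in the single libraries of each group (x axis), with the group mean as a line and the SD in grey. Symbols mark replicates 1, 2 and 3, whose numbers the labels do not tie between groups. Gpr165 and Gpr155 are lower in all 3 deletion libraries, Gpr84, Gpr65, Gpr132, Gpr18 and Gpr162 are higher in all 3, and Gpr183 is lower in all 3 with replicate 2 close to the controls.

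Of the 8 lipid and metabolite receptors, 7 were detected and 4 tested, and 0 were called by edgeR, with 2 at an unadjusted p under 0.05, beside 21.0% of all genes. Both of these, Gpr84 and Gpr18, were called by DESeq2, beside 9.07% of all genes. Gpr18 reached the filter through the deletion libraries, where it is higher, and the stricter filter drops it. Gpr84, a receptor for medium-chain fatty acids that is known to be induced in inflamed myeloid cells (chromosome 15, 103308235 to 103310612, minus strand), was at 309 and 324 CPM in controls against 489, 565 and 589 CPM after deletion. All deletion libraries were above both controls, but the log2 fold change of 0.79 (SE 0.16, 1.73-fold) missed the threshold, with an edgeR adjusted p of 0.0552. The antisense gene Gm49482 overlaps 39.5% of its exon bases. When the trend of the fold changes with gene length was removed, its log2 fold change was 0.45. Gpr183, the oxysterol receptor EBI2, had 283 and 313 CPM against 151, 277 and 180 CPM, with replicate 2 close to the controls (log2 fold change -0.56, SE 0.26, edgeR adjusted p = 0.273). Its neighbour Gpr18, 36.8 kb away on chromosome 14, for which N-arachidonyl glycine has been proposed as a ligand, had 0 and 4 counts in the controls and 42, 28 and 23 after deletion. That is 0 and 0.257 CPM against 3.64, 2.20 and 2.34 CPM, a ratio of pooled counts of 20.2 with an exact 95% interval of 7.64 to 75.8 for counting error. Its edgeR adjusted p was 0.0868, and the controls were too low to set a firm fold. Gpr35, chosen after its values were seen, overlapped between the groups, at 47.3 and 55.0 CPM against 73.6, 48.8 and 63.8 CPM.

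Some Gpr genes encode multipass proteins outside the classical receptor classes, mostly of lysosomes and the Golgi. All 8 were detected, 7 were tested and 0 were called by edgeR. Gpr155 alone had an unadjusted p under 0.05, beside 21.0% of all genes, and it alone was called by DESeq2, beside 9.07%. Gpr155, the lysosomal cholesterol sensor also called LYCHOS (chromosome 2, 73341506 to 73386572, minus strand), was at 421 and 396 CPM in controls against 243, 189 and 157 CPM after deletion. Every deletion library was below both controls. On the log2 scale the difference was -1.06 (SE 0.21, 2.08-fold lower), and its edgeR adjusted p of 0.0504 lay just above the threshold. Gpr137b, a lysosomal protein, had 31.3 and 36.4 CPM against 28.1, 24.9 and 26.1 CPM (log2 fold change -0.36, edgeR adjusted p = 0.273). The pseudogene Gpr137b-ps, not among the 99, shares sequence with it and was lower in the same libraries, at 14.1 and 12.6 CPM against 10.3, 7.15 and 10.2 CPM, so the share of each is uncertain. Gpr108, a Golgi protein, had 76.7 and 80.9 CPM against 83.8, 109 and 105 CPM (log2 fold change 0.33, edgeR adjusted p = 0.317). Gpr180 overlapped between the groups, at 27.9 and 32.8 CPM against 25.7, 26.6 and 30.7 CPM. Gpr137c had 0 and 3 counts in the controls and 1, 13 and 7 after deletion and was not tested. The group summed to 787 and 789 CPM in the controls and to 621, 567 and 548 CPM after deletion.

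Of the 24 neural and glial orphans, 16 were detected and 2 tested. Of these 2, 0 were called by edgeR, beside 2.59% of all genes, or by DESeq2, beside 9.07%. An unadjusted p under 0.05 was found for 0, beside 21.0% of all genes. With 2 genes these counts cannot be told from the shares of all genes. Gpr37l1, an astrocyte receptor chosen after its values were seen, had 3.49 and 6.67 CPM in the controls, 2.25 CPM in A20 deletion replicate 1 and 15.96 and 13.65 CPM in replicates 2 and 3. The summed level of 6 astrocyte markers was 148 and 219 CPM in the controls, 173 CPM in replicate 1 and 321 and 325 CPM in replicates 2 and 3, and the part of astrocyte RNA in Gpr37l1 was not tested. Gpr17, a receptor of oligodendrocyte precursors, had 1 count in all libraries together, and Gpr37, of oligodendrocytes, had 7. Both were chosen after their values were seen. The constitutively active cAMP receptors Gpr3, Gpr6 and Gpr12 gave 2 detected and 0 tested genes.

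Of 13 tested adhesion receptor genes, edgeR called 0, with 4 at an unadjusted p under 0.05 (Adgra3, Adgrl2, Adgrg5 and Adgrg1), beside 21.0% of all genes. Of these, Adgrg5 reached the filter through the deletion libraries, where it is higher. DESeq2 called Adgra3 and Adgrl2, both lower, beside 9.07% of all genes. Adgrg1 (GPR56; chromosome 8, 94974751 to 95014217, plus strand), which marks microglia of embryonic origin, was at 1907 and 2067 CPM in controls against 1551, 1568 and 1475 CPM after deletion. Every deletion library was below both controls, with means of 1987 ± 114 (SD, n = 2) and 1531 ± 49.8 CPM (SD, n = 3). On the log2 scale the difference was -0.38 (SE 0.13, edgeR adjusted p = 0.188). Adgre1 (F4/80; chromosome 17, 57358691 to 57483527, plus strand), the macrophage surface antigen, overlapped between the groups, at 981 and 1246 CPM against 1199, 879 and 963 CPM. The fold change was -0.14 on the log2 scale (SE 0.19, edgeR adjusted p = 0.693).

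In subfamily E, Adgre1, Adgre4 and Adgre5 were all tested. Adgre4, another myeloid member, had 2.92 and 2.57 CPM against 6.93, 2.91 and 4.58 CPM (log2 fold change 0.81, edgeR adjusted p = 0.345). Adgre5 (CD97), chosen after its values were seen, was at 1.85 and 2.12 CPM against 6.33, 1.65 and 1.12 CPM, high in A20 deletion replicate 1 alone, and 24.7% of its exon bases overlap Ddx39. In subfamily L, the latrophilins, Adgrl2 was at 69.9 and 73.8 CPM against 52.6, 40.4 and 45.7 CPM (log2 fold change -0.64, SE 0.17, edgeR adjusted p = 0.120). In subfamily A, Adgra3 was at 37.8 and 33.0 CPM against 23.6, 19.0 and 14.9 CPM (log2 fold change -0.89, SE 0.23, edgeR adjusted p = 0.105). Adgrl2 and Adgra3 were below both controls in every deletion library.

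Several adhesion receptors had only a few counts. Adgrg5, which lies 31.5 kb from Adgrg1 on chromosome 8, had 0 and 1 counts in the controls and 13, 7 and 10 after deletion, a ratio of pooled counts of 26.1 with an exact 95% interval of 4.34 to 1065 (edgeR adjusted p = 0.120). Adgrg6, known for its role in Schwann cell myelination, had 0 counts in both controls and 14, 6 and 3 after deletion, at least 6.67-fold higher against 3 counts over both controls, a bound that covers counting error only. Adgrf5 (GPR116) had 0 and 0.898 CPM against 6.15, 1.10 and 0.713 CPM, and Adgrl4 (ELTD1) had 0 and 4 counts against 31, 4 and 4. Both are high in A20 deletion replicate 1 alone and are known from endothelial cells. Of 6 endothelial markers, Pecam1 was below both controls in every deletion library (50.6 and 53.1 CPM against 26.3, 35.2 and 28.01 CPM), and the other 5 were above both controls in every deletion library. Over all tested genes, the groups did not overlap for 40.2%. Ly6c1, among the 5, reached the filter through the deletion libraries, where it is higher. Those 5 summed to 15.6 and 18.7 CPM in the controls, 94.4 CPM in A20 deletion replicate 1 and 28.7 and 32.8 CPM in replicates 2 and 3, and the sum over all 6 was 66.2 and 71.9 CPM against 121, 63.9 and 60.8 CPM. The smallest edgeR adjusted p of the 6 was 0.0797, that of Pecam1. Their part in Adgrf5 and Adgrl4 was not tested. Of subfamily F, Adgrf1 to Adgrf4 had 0 counts in all libraries. So had Adgrg3 and Adgrg4 of subfamily G, although Adgrg3 lies 3.47 kb from Adgrg1.

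Gpr genes with 0 counts in all 5 libraries included Gpr1, Gpr6, Gpr22, Gpr25, Gpr39, Gpr50, Gpr61, Gpr63, Gpr83, Gpr119, Gpr139, Gpr142, Gpr143, Gpr149, Gpr151 and Gpr152. With 9726334 to 15275199 counts per library, a level below 0.192 to 0.306 CPM in a single library could have gone undetected. For a level shared by all 5 libraries the limit is lower.

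The markers of other cells the eYFP sort could hold gave these levels beside the receptor genes. Monocyte markers summed to 19.1 and 15.8 CPM in the controls and to 65.7, 47.0 and 39.4 CPM after deletion, and without Plac8 the sums overlapped between the groups. Of 5 tested, 1 rose, beside 2.08% of all genes. This was Plac8 (2.99 and 2.63 CPM against 30.7, 16.7 and 27.1 CPM, edgeR adjusted p = 0.00792). The groups did not overlap for 4 of the 5, beside 40.2% of all genes. Fn1 was higher in every deletion library (3.06 and 4.88 CPM against 23.3, 23.3 and 5.60 CPM, edgeR adjusted p = 0.137). So was Ly6c2, with 1 and 0 counts against 12, 7 and 12, which reached the filter through the deletion libraries. Ccr2, the defining monocyte receptor, went the other way, with a log2 fold change of -0.65, and was lower in every deletion library. Markers of T and NK cells had 0 counts in both controls for 8 of 9 genes, Cd3e and Trac among them, and summed to 4.33, 3.22 and 2.04 CPM after deletion, with 0 of 9 tested and Nkg7 the highest. The sum of the border macrophage markers, led by Mrc1, overlapped between the groups, at 59.0 and 130.0 CPM against 105, 85.5 and 96.9 CPM, as did 6 of its 7 genes. Clec10a did not, at 0.783 and 1.54 CPM against 3.47, 7.47 and 5.70 CPM (edgeR adjusted p = 0.0868). Neutrophil markers summed to 231 and 243 CPM against 349, 365 and 337 CPM, nearly all from Csf3r, which other myeloid cells also express, while the median log2 fold change of the 3 tested was -0.88. B cell markers summed to 39.1 and 39.0 CPM against 37.6, 49.8 and 50.6 CPM, nearly all from Cd79b. Of 6 astrocyte markers, led by Slc1a3, 1 rose (Aldh1l1, edgeR adjusted p = 0.0343). Oligodendrocyte markers summed to 194 and 221 CPM against 258, 365 and 366 CPM, led by Cnp, and neuronal markers to 5.41 and 2.89 CPM against 7.54, 12.03 and 9.17 CPM, led by Snap25. Markers of oligodendrocyte precursors, led by Olig1, summed to 3.06 and 3.46 CPM against 2.51, 9.43 and 6.52 CPM. Mural cell markers, led by Rgs5, summed to 6.90 and 2.95 CPM against 5.20, 9.20 and 12.5 CPM. Of 10 microglial markers, 1 fell (Fcrls, 2.38-fold lower, edgeR adjusted p = 0.0217), beside 0.507% of all genes. The groups did not overlap for 9 of the 10, beside 40.2% of all genes, and 6 had an unadjusted p under 0.05, beside 21.0%. All but Siglech were below both controls in every deletion library, and the median log2 fold change of the 10 was -0.39. Gpr65, Gpr132, Gpr18 and Gpr183 are also known from lymphocytes or other blood leukocytes, and the part of such cells in their values was not tested. Ccr2, Fn1, Ly6c2, Aldh1l1, Clec10a, Trac, Cd3e, Fcrls and Siglech were named after their values were seen.

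Behind the receptors, 91 genes of G protein signalling were listed, of which 68 were tested and 0 were called by edgeR, with 17 (25.0%, beside 21.0% of all genes) at an unadjusted p under 0.05 and 4 called by DESeq2, beside 9.07% of all genes. Their median log2 fold change was -0.09. The G protein subunits (24 tested) had a median of 0.13. Gna14, a Gq-class alpha subunit, was at 0.356 and 0.898 CPM in controls against 2.17, 4.48 and 2.55 CPM after deletion (log2 fold change 2.27, SE 0.67, edgeR adjusted p = 0.141). Gna13, another alpha subunit, was at 219.7 and 246 CPM against 179, 157 and 145 CPM (edgeR adjusted p = 0.149). Gng5, a gamma subunit, was at 17.6 and 19.5 CPM against 23.3, 31.5 and 32.7 CPM (edgeR adjusted p = 0.167). These 3 were named for the smallest p of their list. The groups did not overlap for 9 of the 24 subunits (37.5%), beside 40.2% of all genes.

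The regulators (20 tested) had a median of -0.08. Rgs1, which speeds the shut-off of Gi and Gq, varied in both groups, with 57.9 and 22.6 CPM against 49.3, 197 and 174 CPM (edgeR adjusted p = 0.188). Arrb1, a beta-arrestin that uncouples receptors, was at 211 and 198 CPM against 169.7, 88.4 and 108 CPM (edgeR adjusted p = 0.197). Rgs10, a regulator abundant in microglia, was at 528 and 492 CPM against 565, 750 and 704 CPM (edgeR adjusted p = 0.247). The effectors (24 tested), among them adenylyl cyclases and phosphodiesterases, had a median of -0.41 and summed to 3124 and 2897 CPM in the controls and to 2711, 1981 and 1929 CPM after deletion. Adcy8, a calcium-stimulated adenylyl cyclase, was at 6.69 and 5.32 CPM against 0.693, 0.943 and 0 CPM (log2 fold change -3.39, SE 0.86, edgeR adjusted p = 0.103). Adcy9 was at 24.1 and 27.2 CPM against 16.4, 6.29 and 7.95 CPM (edgeR adjusted p = 0.137), and the phosphodiesterase Pde3b at 859 and 739 CPM against 644, 453 and 431 CPM (edgeR adjusted p = 0.165). These 3 too were named for the smallest p, and the groups did not overlap for 11 of the 24 effectors (45.8%), beside 40.2% of all genes. For Adcy9 and Pde3b values were lower in replicates 2 and 3, the libraries with more mitochondrial and fewer long-gene counts, and the part of that difference was not tested.

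**Figure D4:**
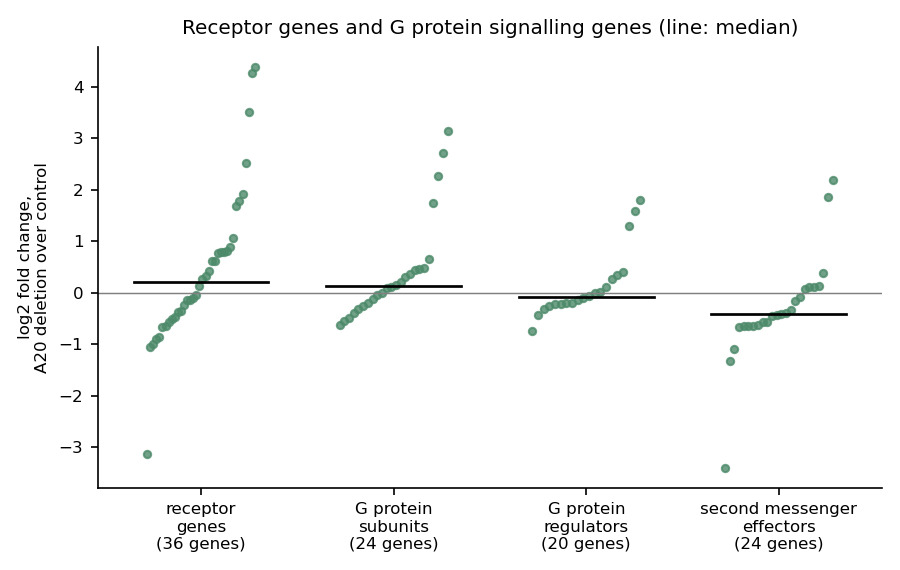
Log2 fold change of A20 deletion over control (y axis) for each tested gene, as a point, of the receptor genes and of 3 lists of G protein signalling genes (x axis), in increasing order within a list, with the median as a line. The medians are 0.21, 0.13, -0.08 and -0.41, and Adcy8 is the lowest point of the effectors.

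The receptor calls depended on which libraries were used. Gpr165 was called in 14 of 16 alternatives, with log2 fold changes between -3.50 and -2.58 and adjusted p of 0.113 at most. Gpr65 and Gpr162 were called in 13 of 16 each and Gpr132 in 8 of 15. All kept their direction in every alternative. With control replicate 1 left out, 0 of 41 receptor genes were called, and 0.139% of all genes. With control replicate 2 left out, 0 of 42 were called, and 0.0% of all genes. In both cases the single control is assumed to vary like the other group. Without A20 deletion replicate 1, 16 of 35 receptor genes were called (9 higher and 7 lower), beside 32.4% of all genes. Without replicate 3 Gpr165 alone was called, beside 0.769% of all genes. Without replicates 2 and 3, the libraries rich in mitochondrial transcripts, Gpr65, Gpr162, Gpr165 and Gpr183 were called of 34, beside 3.28% of all genes. With 1 deletion library left, the spread comes from the controls alone, and Gpr183 then had a log2 fold change of -0.98 (edgeR adjusted p = 0.0426).

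Some other fits called more receptor genes, and more genes in all. DESeq2 called 10 of 36, adding Gpr18, Gpr84, Gpr155, Gpr157, Adgrl2 and Adgra3, beside 9.07% of all genes. With no filter on low counts 13 of 75 were called, among them Adgrg6 and Adgrf5, beside 8.22% of all genes. With a term for the libraries with Xist, added after seeing the data, 9 of 36 were called, the 4 genes above and Gpr155, Gpr84, Gpr157, Gpr18 and Adgra3, beside 6.73% of all genes. Gpr155 was called in 9 of 16 alternatives and Gpr84 in 5 of 16. Gpr132 was lost with limma-voom (adjusted p = 0.0803), without A20 deletion replicates 2 and 3 (edgeR adjusted p = 0.107) and without any single library other than A20 deletion replicate 1. Gpr65 (edgeR adjusted p = 0.0603) and Gpr162 (0.0698) were lost without A20 deletion replicate 3.

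**Figure D5:**
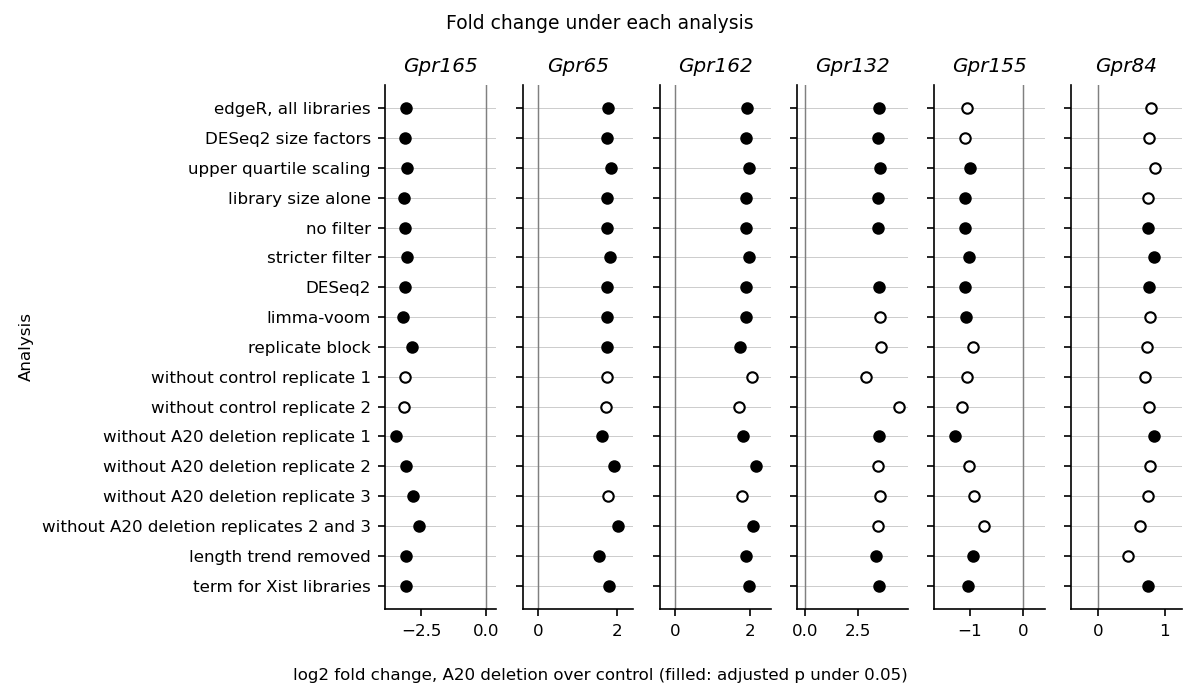
Log2 fold change of A20 deletion over control (x axis) for 6 receptor genes under each analysis (y axis); filled points have an adjusted p under 0.05, and a missing point means that the gene did not pass that filter. All points of a gene lie on the same side of 0, and none of the 6 genes is called without control replicate 1 or without control replicate 2.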

How the data were processed

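The authors deposited 1 table of raw read counts per Ensembl gene for 5 libraries. Alignment and counting named STAR 2.4.0j and featureCounts (version not given), with genome build GRCm38 and DESeq2 1.22.1, per the submitters' processing notes. Strand setting, annotation release and handling of multi-mapping reads were not given in the sources used here. Per the labels' protocols, brains were digested with papain, eYFP-positive cells were sorted and libraries were made with NEBNext Ultra II (10 ng RNA, integrity number at least 7). Symbols, positions and exon lengths came from GENCODE M21 (GRCm38): 40340 identifiers matched and 1048 did not, and those held 0.0422% to 0.0583% of counts and stayed in.

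The fit used edgeR 4.0.16 in R 4.3.3: filterByExpr (minimum count 10, minimum total 15), TMM scaling, glmQLFit and glmQLFTest (two-sided, no covariate), and Benjamini-Hochberg adjustment over all 12240 genes kept, threshold 0.05. SE is the log2 fold change divided by the square root of F and is approximate. Ratios of pooled counts have exact 95% intervals, for counting error alone, as the table counts reads and not molecules. The procedure was tested on simulated data.

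Alternatives were DESeq2 size factors, upper quartile scaling, library size alone, limma-voom (limma 3.58.1), DESeq2 1.42.0, no filter, a minimum of 5 CPM in 2 libraries, the replicate number as a block, each library left out, A20 deletion replicates 2 and 3 left out, and the length trend removed. A term for the Xist libraries was added after seeing the data. The receptor genes, the lists and the tests were chosen with earlier results of these data known. Named are the called receptor genes, the 10 of highest mean CPM per kilobase, the 10 next smallest p, the 3 untested genes of most counts, per signalling list the called genes and the 3 of smallest p, and per list of other cells the gene of highest CPM. Pseudogenes Adgrd2-ps and Gpr137b-ps and the noncoding Gpr141b were left out. Some genes are not reported here.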

Additional observations from a re-analysis of the deposited data

How the results depend on the processing

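Calls over all genes, 317 with all libraries, came to 1701 with no filter, 1110 with DESeq2, 211 with limma-voom and 824 with the term for the Xist libraries, and ranged from 0 to 3923 when 1 library was left out. The 0, without control replicate 2, had 1323 genes at an unadjusted p under 0.05. Of all calls 80.4% were higher, beside 61.6% with no filter and 67.0% with DESeq2. Receptor gene calls, 4 with all libraries, were 13 with no filter, 10 with DESeq2 and 9 with the Xist term, and 0 to 16 with 1 library left out. Signalling gene calls, 0 with all libraries, were 10 with no filter, 4 with DESeq2 (Adcy8, Adcy9, Gna13 and Gna14), 1 with the Xist term (Adcy9) and 1 without A20 deletion replicates 2 and 3 (Adcy8), and 0 to 31 with 1 library left out. The cause of these differences was not tested. Detected receptor genes, 75, fell to 35 when at least 1 CPM in 2 libraries was asked. Of 355 alternative values of the 23 tested receptor genes named by the rules above, 303 kept direction and side of the threshold. Of the rest, 15 lost the call, 36 gained one and 1 reversed: Adgre1 without A20 deletion replicates 2 and 3, at a log2 fold change of 0.12. Outside these 23, Gpr37l1 and Adgre5, named after their values were seen, also reversed in some alternative. Their log2 fold changes of 1.06 and 0.61 reached -1.16 and -0.53. With the replicate number as a block, 260 genes, 3 receptor genes (Gpr132 lost, adjusted p = 0.0677) and 0 signalling genes were called, of which the 260 shared 219 with the fit without it. Same-numbered libraries deviated together with correlations of 0.26 and 0.167 over only 2 pairs, and the labels do not tie the numbers. Control and A20 deletion replicates 1 both held Xist, and replicates 2 both held Y-linked counts. The block therefore also sets these libraries apart, and whether same-numbered libraries share a source is not stated. With 2 control libraries, a difference has to be large to pass the test, and genes with few counts are limited by depth.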
